A study of Mus musculus with 7 samples.

Results

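The 44 collagen genes of the mouse were followed through caerulein-induced pancreatic inflammation by the accessible chromatin regions nearest to them. Members were the protein-coding genes whose symbols read Col, a number, a and a number, which gave 44 of the 21627 protein-coding genes of the GRCm38 annotation on chromosomes 1 to 19 and X. They were divided into 11 fibrillar collagens, 9 collagens of basement membranes and their zone, and 24 other collagens. A region was linked to a gene when its summit lay inside the gene span, or nearer to it than to any other protein-coding gene and within 50 kb.

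The assay was ATAC-seq. It uses the Tn5 transposase to cut and tag DNA that is not packed into nucleosomes, here in pancreatic epithelial cells purified from wild-type C57BL/6J mice. Mice were either untreated or had received caerulein, a cholecystokinin analogue that overstimulates acinar cells and causes a transient acute pancreatitis, and were taken at 1, 7 and 28 days. Each of these 4 groups is represented by 1 peak list from 1 library, so that replicates are lacking, every comparison is between libraries and no p-value was computed. For the number of animals behind a library, and for the method of purification, the labels give nothing. The series also lists 3 samples of DCLK1-positive cells, which were not analysed here.

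Collagens are triple-helical proteins of the extracellular matrix. Fibrillar collagens assemble into the fibrils of connective tissue and scars, and in the pancreas they are known chiefly as products of stellate cells and fibroblasts. Type IV collagen forms the sheet-like network of the basement membrane on which acini, ducts and capillaries rest. The remaining types decorate fibrils, build microfilaments or networks, or span the cell membrane. Bulk accessibility of a purified population does not say which cell holds an open region, and more cells of a type and more open chromatin per cell cannot be told apart.

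The lists held 140286 regions in the untreated library and 164684, 145337 and 130149 at days 1, 7 and 28, of which 126094, 141646, 127117 and 116476 were linked to a gene. The labels give no read totals. The authors' fold enrichment (pileup over background at the summit) shows that the libraries differed in how far peaks stood out. In the 59902 merged regions that all 4 lists share, the median of fold minus 1 was 7.40 in the untreated library and 16.6, 15.1 and 11.5 at days 1, 7 and 28. The weakest region listed lay at 0.199, 0.0819, 0.129 and 0.160 of that median, so the day 1 list reaches furthest down. The folds are the authors' own values and are used here to rank or filter regions within a list.

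Marker genes were set beside the label of the cells. In the untreated library all 6 epithelial genes (Epcam, Cdh1, Cldn4, Krt8, Krt18 and Esrp1) and all 10 acinar genes had regions. So did 15 of 16 fibroblast and stellate genes, Lum being the exception, and all 10 endothelial genes, which are markers of cells that an epithelial purification should remove. All 6 pericyte and smooth muscle genes and all 6 Schwann cell genes also had regions, and 3 of 8 leukocyte genes had none. Regions are common: in this list 67.8% of all genes with a matched start site had one within 1 kb of it. Having a region therefore does not show that a cell type was present. At day 1 the epithelial list had no peak at 70 of its 103 untreated regions (68.0%) and the acinar list at 144 of 173 (83.2%). The share over all gene-linked untreated regions was 37.1%. Epcam went from 19 regions to 7 and the E-cadherin gene Cdh1 from 41 to 13, while Cldn4 went from 9 to 8. The fibroblast and stellate list held 166 regions in the untreated library and 288, 238 and 187 at days 1, 7 and 28. Its genes differed: the decorin gene Dcn held 4, 23, 9 and 7 regions, and Pdgfrb held 21, 19, 25 and 19. These lists moved in the same libraries as the collagen regions below, and their part in the collagen results was not tested.

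Collagen genes held their highest number of listed regions at day 1. They were linked to 636 regions in the untreated library (0.504% of all gene-linked regions) and 1013, 781 and 563 at days 1, 7 and 28 (0.715, 0.614 and 0.483%). The numbers of days 1 and 7 lie above both the untreated and the day 28 number. When all lists were held to the same weakest enrichment relative to their own median, however, the numbers were 636, 651, 696 and 553. The size of the day 1 excess in number thus depends on how far down that list reaches, and day 7 then had the highest number. All gene-linked regions numbered 126094, 94988, 116242 and 115262 under that setting, so the day 1 collagen number stood beside the smallest total. In each library 43 of the 44 genes had at least 1 region, the exception being Col10a1, a network collagen of growth plate cartilage. Where 4 numbers of regions are given for a gene below, they are in the order untreated, day 1, day 7 and day 28, and where 3 gains or losses are given they are those of days 1, 7 and 28.

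**Figure D1:**
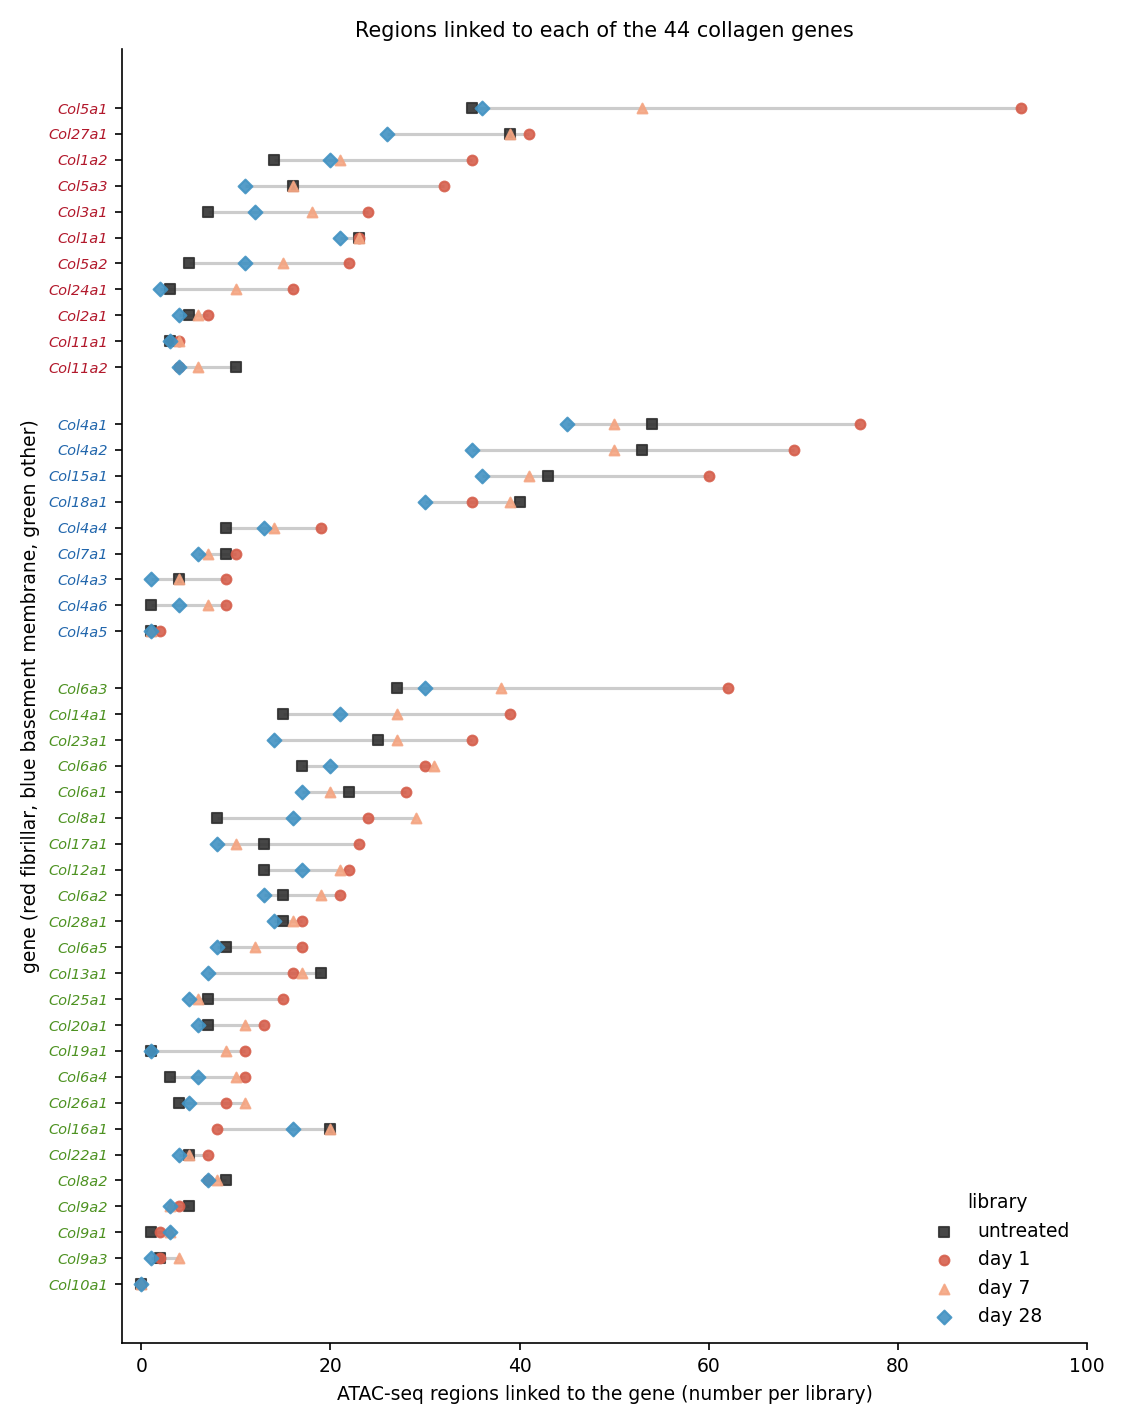
Number of accessible regions linked to each of the 44 collagen genes (horizontal axis), with 1 marker per library and genes grouped by class. Col5a1 reached 93 regions at day 1 against 35 in the untreated library, while Col1a1 stayed between 21 and 23 and Col10a1 had 0.

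Gained regions are those of a later list without a single base (1 bp) of overlap with an untreated peak. At day 1, 641 of 1013 collagen regions were gained (63.3%, exact 95% interval 60.2 to 66.3%), against 49.9% of all gene-linked regions. The number for day 7 was 354 of 781 (45.3%, 41.8 to 48.9%) against 33.9%, and at day 28 it was 146 of 563 (25.9%, 22.4 to 29.8%) against 23%. The share of all linked regions lay below the collagen interval at days 1 and 7 and inside it at day 28. All intervals cover counting error only, and nearby regions of a gene are not independent. At day 1, 38 of the 44 genes gained more regions than they lost (86.4%), against 39.5% of all protein-coding genes. The numbers were 33 at day 7 (75%, against 30.3%) and 13 at day 28 (29.5%, against 22.1%). Many genes have few or no regions, so the count was repeated over genes with a mean of at least 5 regions in the 2 lists compared. It was then 35 of 38 collagen genes at day 1 (92.1%, against 57.9%), 29 of 37 at day 7 (78.4%, against 44.6%) and 9 of 30 at day 28 (30%, against 35.7%). More regions lost than gained were seen at 3, 6 and 22 of the 44 genes (6.82, 13.6 and 50%, against 25.9, 29.5 and 31.9%). Among the 30 genes counted at day 28 it was 16 (53.3%, against 49.8%).

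An untreated region was called lost when no later peak overlapped it. Of the 636 untreated collagen regions 121 were lost at day 1 (19%, 16.0 to 22.3%), against 37.1% of all gene-linked untreated regions. The loss at day 7 was 127 regions (19.97%, 16.9 to 23.3%) against 31.8%, and at day 28 it was 197 (31.0%, 27.4 to 34.7%) against 26.7%. The share of all linked regions lay above the collagen interval at days 1 and 7 and below it at day 28. The day 28 difference was not kept with a −log10 q of at least 5, where 28.5% (24.6 to 32.6%) stood against 25.1%. When regions had to share at least 50% of both lengths, 78.3% of the untreated collagen regions counted as lost at day 1 and 56.4% at day 7. The shares of all linked regions under that setting were 67.7 and 55.0%. The first lay below the collagen interval of day 1 (74.9 to 81.4%), and the second lay inside that of day 7 (52.5 to 60.3%). That setting also counts an untreated region inside a much wider later peak as lost. Median width was 295 bp for untreated collagen regions and 850.5 bp for day 1 collagen regions shared with the untreated list. The setting therefore cannot tell a missing region from a widened one.

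**Figure D2:**
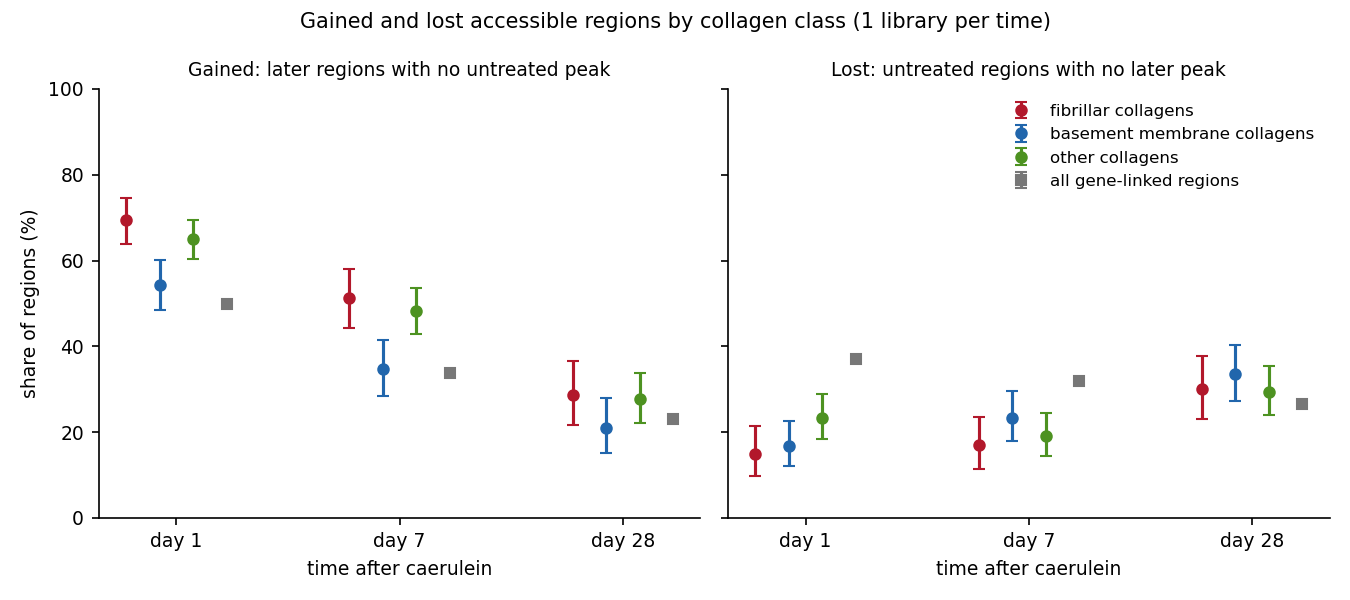
Share of later regions with no untreated peak (left) and of untreated regions with no later peak (right), in percent, for 3 collagen classes and all gene-linked regions at days 1, 7 and 28, with exact 95% intervals for the collagen classes. At day 1 fibrillar collagens stand at 69.4% gained and 15% lost, and by day 28 the classes lie between 21.1 and 28.7% gained.

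Fibrillar collagen genes had the highest gained share of the 3 classes. Their 11 genes held 160 regions in the untreated library and 301, 211 and 150 at days 1, 7 and 28, or 9.99, 18.8, 13.2 and 9.37 per 100 kb of the sequence nearest to them. Of the day 1 regions 209 were gained (69.4%, 63.9 to 74.6%), of the day 7 regions 108 (51.2%, 44.2 to 58.1%) and of the day 28 regions 43 (28.7%, 21.6 to 36.6%). When each list was held to the same weakest enrichment relative to its own median, the day 1 share was 55.2%, against 39.1% of all linked regions. Without that setting, the shares of all linked regions were 49.9, 33.9 and 23% at days 1, 7 and 28. Those of days 1 and 7 lay below the fibrillar intervals of the same days, and that of day 28 lay inside its interval. Losses were 24, 27 and 48 of 160 untreated regions at days 1, 7 and 28 (15, 16.9 and 30.0%), against 37.1, 31.8 and 26.7% of all linked untreated regions.

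At days 1 and 7 the collagen gene with the most gained regions was Col5a1 (chr2:27886381-28039510), which encodes a chain of type V collagen, a minor component that sets the diameter of fibrils. It held 35 regions in the untreated library and 93, 53 and 36 at days 1, 7 and 28. Gained regions numbered 67, 30 and 9 at days 1, 7 and 28, and lost ones 2, 4 and 9. The count was back near its starting value by day 28, although 9 of its regions were then new, as many as at Col4a1, Col6a6 and Col8a1, and 9 untreated ones were missing. Its partners in type V collagen followed with fewer regions. Col5a3 held 16, 32, 16 and 11 regions, with 25 gained at day 1 and 1 at day 28. Col5a2 held 5, 22, 15 and 11, with 19 gained at day 1 and 6 at day 28. Col5a2 thus held more regions at day 28 than before treatment, and Col5a3 fewer.

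Col1a2 (chr6:4505618-4541543), which encodes a chain of type I collagen, the main protein of scar tissue, held 14 regions in the untreated library and 35, 21 and 20 at days 1, 7 and 28. Gained regions numbered 27, 13 and 7, and none of the 14 untreated regions was lost at any time. Col3a1 (chr1:45311538-45349706), the gene of type III collagen, held 7, 24, 18 and 12 regions. It gained 18, 11 and 5 and also lost none. In both genes the day 28 library still held more regions than the untreated one. The other chain of type I collagen differed in number: Col1a1 (chr11:94936224-94953042) held 23, 23, 23 and 21 regions, of which 12, 8 and 4 were gained. Of its 23 untreated regions 1, 2 and 4 were lost.

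The promoters of Col1a2 and Col3a1 are shown because a region lay within 1 kb of the start in every list, in 2 genes that lost no region at any time. The sequences are the 250 bases before the annotated start, from RefSeq (GRCm38.p6), 5′ to 3′ on the gene's strand, at chr6:4505368-4505617 (plus strand) for Col1a2 and chr1:45311288-45311537 (plus strand) for Col3a1. Both were chosen after their values were seen. Capitals mark motif matches, which were sought on both strands. The GC box was searched as GGGCGG. For the box known as CCAAT those letters served as the search. The letters of the TATA box were TATAAA in this search. An AP-1 motif, the site of the Fos and Jun factors, was taken as TGANTCA.
Col1a2: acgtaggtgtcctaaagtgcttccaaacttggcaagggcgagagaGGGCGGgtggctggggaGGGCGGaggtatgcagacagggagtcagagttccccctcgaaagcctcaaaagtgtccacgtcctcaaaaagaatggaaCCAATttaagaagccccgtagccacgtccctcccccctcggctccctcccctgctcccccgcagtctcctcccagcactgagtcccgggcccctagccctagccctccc
Col3a1: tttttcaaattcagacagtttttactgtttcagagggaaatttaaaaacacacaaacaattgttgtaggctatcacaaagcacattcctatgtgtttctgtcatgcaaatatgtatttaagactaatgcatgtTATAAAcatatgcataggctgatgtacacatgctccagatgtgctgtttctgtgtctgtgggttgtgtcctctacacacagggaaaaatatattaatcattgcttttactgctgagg
The Col1a2 promoter holds 2 GC boxes, which begin 205 and 188 bases before the start, and a CCAAT box at 109 bases. The Col3a1 promoter holds a TATA box at 117 bases and none of the other motifs. The fold enrichment of the region at the Col1a2 start was 11.4 in the untreated list and 59.7, 38.1 and 20.7 at days 1, 7 and 28, and its width was 608, 1553, 1513 and 849 bp. At the Col3a1 start the folds were 5.60, 24.3, 16.7 and 7.66. These folds are on scales that differ between libraries, as the medians over shared regions show, and no change is read from them.

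**Figure D3:**
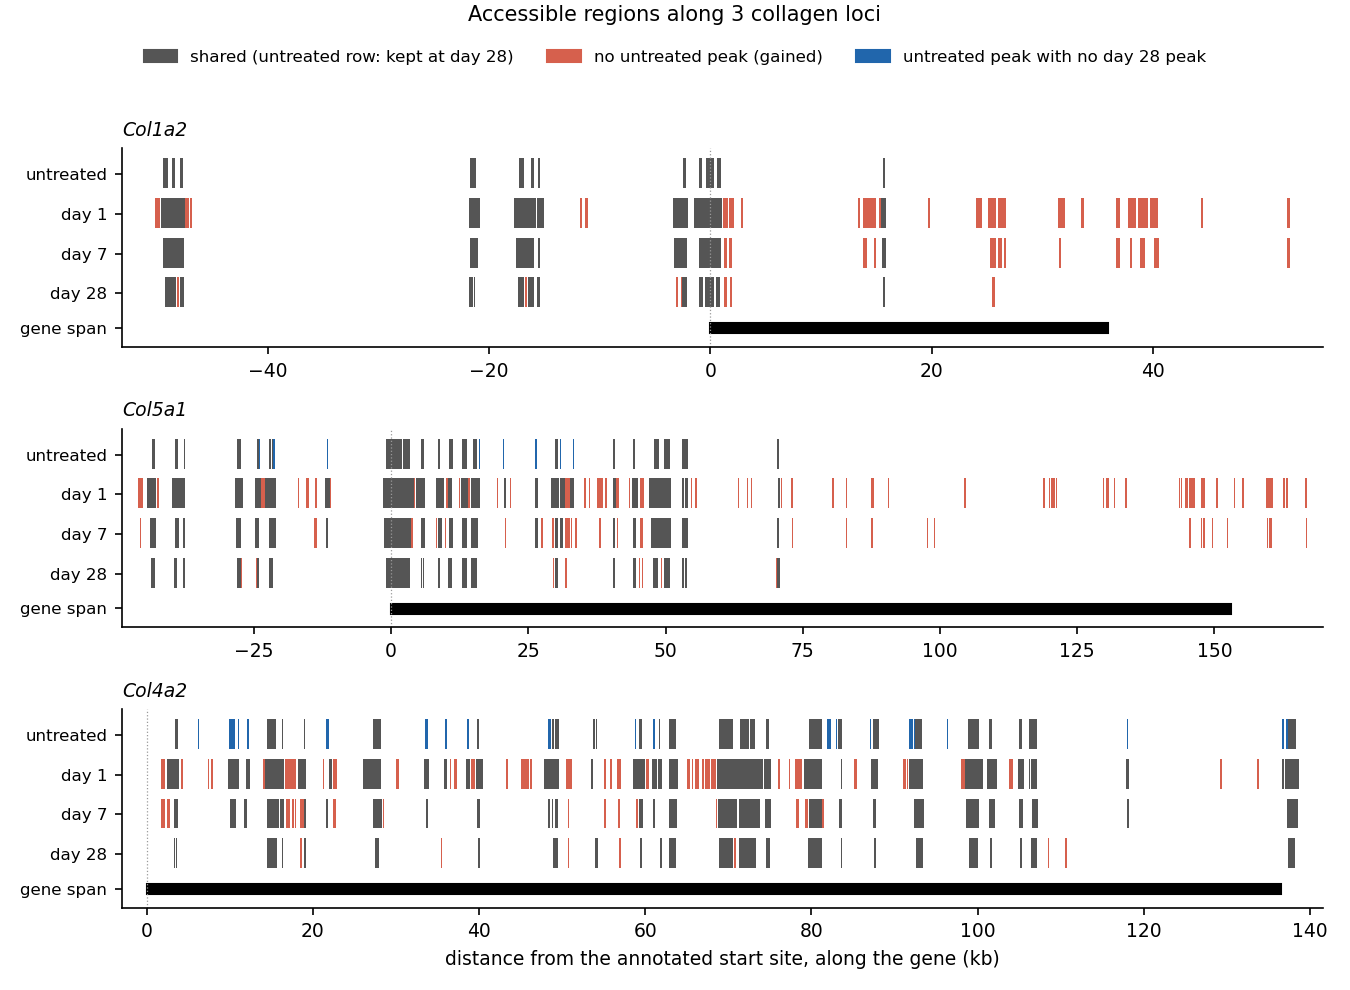
Accessible regions along Col1a2, Col5a1 and Col4a2 in the 4 libraries, as distance from the annotated start site in kb, with the gene span in black. Red regions have no untreated peak and blue untreated regions have no day 28 peak; Col1a2 shows 27 red regions at day 1 and no blue ones, Col4a2 shows 22 blue ones, and the peak over the start of Col4a2 is linked to Col4a1 and not drawn.

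Among the rarer fibrillar chains the pattern was mixed. Col24a1 went from 3 regions to 16 at day 1, 10 at day 7 and 2 at day 28, with 15, 8 and 1 gained. Its day 1 gains included a region inside the gene at chr3:145420419-145421106 with a fold of 44.9, which lay above 91.0% of the regions in that list. Col27a1 held 39, 41, 39 and 26 regions, with 17 gained at day 1 and 18 of 39 lost at day 28, the most of its class. The cartilage collagen gene Col11a2 held 10, 4, 6 and 4 regions and was the single fibrillar gene with more regions lost (7) than gained (2) at day 1. Col2a1 and Col11a1, also best known from cartilage, held between 3 and 7 regions in every list. Among the 9 fibrillar genes with at least 5 day 1 regions, the gained share ran from 41.5% in Col27a1 to 93.8% in Col24a1, with a median of 75%. The median over the 8240 protein-coding genes with that many regions was 50%.

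Basement membrane collagen genes had the gained shares nearest to the background. Their 9 genes held 214 regions in the untreated library and 289, 213 and 171 at days 1, 7 and 28, or 14.5, 19.6, 14.4 and 11.6 per 100 kb. Gained regions were 157 of 289 at day 1 (54.3%, 48.4 to 60.2%), 74 of 213 at day 7 (34.7%, 28.4 to 41.5%) and 36 of 171 at day 28 (21.1%, 15.2 to 27.9%). The shares of all linked regions, 49.9, 33.9 and 23%, lay inside all 3 of these intervals. At day 1 this did not hold with links within 10 kb (48.9 to 61.3%, against 48.6%) or with the 50% overlap (75.6 to 85.0%, against 71.3%), where the background lay below the interval. The day 7 share moved below the background with the 50% overlap (53.1% against 55.3%) and with the common enrichment minimum (29.3% against 31.0%). Losses were 36, 50 and 72 of 214 regions (16.8, 23.4 and 33.6%), against 37.1, 31.8 and 26.7% of all linked untreated regions.

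Col4a1 and Col4a2, which lie head to head and encode the widespread chains of type IV collagen, held more regions than any other gene of the class. Col4a1 (chr8:11198423-11312889) held 54 regions in the untreated library and 76, 50 and 45 at days 1, 7 and 28, with 40, 13 and 9 gained and 10, 15 and 17 lost. Col4a2 (chr8:11312805-11449287) held 53, 69, 50 and 35, with 37, 17 and 7 gained and 6, 15 and 22 lost. In this pair the day 28 list was shorter than the untreated one, and Col4a2 lost more regions by day 28 than any other collagen gene. The strongest of these losses, at chr8:11322756-11323463, inside Col4a2 and 10.1 kb from the nearest start site, had a fold of 6.59 in the untreated list and peaks at days 1 and 7. The strongest collagen gain of day 1 lay inside Col4a1, at chr8:11264648-11265959, with a fold of 67.0, and it overlapped peaks at days 7 and 28.

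The other type IV chains, known from kidney and other specialised basement membranes, had few regions. Col4a4 held 9, 19, 14 and 13, with 12 gained at day 1, and Col4a3 held 4, 9, 4 and 1, with 7 gained. Col4a6 held 1, 9, 7 and 4, with 7 gained, and Col4a5 held 1 or 2 in every list. Over the 6 type IV genes 46 of 122 untreated regions were lost at day 28 (37.7%, 29.1 to 46.9%), against 26.7% of all linked regions. Col15a1, whose product links basement membranes to the underlying matrix, held 43, 60, 41 and 36 regions and gained 32 at day 1 and 6 at day 28. Col18a1, the gene from whose product endostatin is cut, held 40, 35, 39 and 30, with 16 gained and 11 lost at day 1 and 12 lost at day 28. Col7a1, the anchoring fibril collagen, held 9, 10, 7 and 6.

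The 24 other collagen genes had gained shares whose intervals overlapped those of the fibrillar class at every time. They held 262 regions in the untreated library and 423, 357 and 242 at days 1, 7 and 28, or 6.56, 10.6, 8.94 and 6.06 per 100 kb. Gained regions were 275 of 423 (65.0%, 60.3 to 69.6%), 172 of 357 (48.2%, 42.9 to 53.5%) and 67 of 242 (27.7%, 22.1 to 33.8%). The shares over all linked regions were 49.9, 33.9 and 23%, and the last of these lay inside the interval. Losses were 61, 50 and 77 of 262 (23.3, 19.1 and 29.4%), against 37.1, 31.8 and 26.7% of all linked untreated regions. The subgroups below were described separately because their products do different things.

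Type VI collagen forms beaded microfilaments close to cell surfaces. Its 6 genes gained 112 of 169 regions at day 1 (66.3%, against 49.9% of all linked regions) and 29 of 94 at day 28 (30.9%, against 23%). They lost 9 of 93 untreated regions at day 1 (9.68%, against 37.1%) and 20 at day 28 (21.5%, against 26.7%). Col6a3 (chr1:90766860-90844001) held 27 regions in the untreated library and 62, 38 and 30 at days 1, 7 and 28, with 46, 15 and 8 gained and at most 2 lost. One of its gains, at chr1:90729433-90729929 and 37180 bp outside the span, had a fold of 53.7 at day 1 and was still listed at days 7 and 28. Col6a6 was at its highest at day 7, with 17, 30, 31 and 20 regions and 18, 17 and 9 gained. Col6a1 held 22, 28, 20 and 17 and Col6a2 held 15, 21, 19 and 13, so that both ended below their untreated numbers.

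Col8a1, a short-chain network collagen of vessel walls and matrix, was a further gene with its highest number at day 7. It held 8 regions in the untreated library and 24, 29 and 16 at days 1, 7 and 28, with 17, 21 and 9 gained and 0, 0 and 1 lost. Of the collagens that coat fibrils, Col14a1 held 15, 39, 27 and 21 regions with 27 gained at day 1, Col12a1 held 13, 22, 21 and 17 with 14 gained, and Col19a1 held 1, 11, 9 and 1 with 10 gained. Col16a1 went the other way at day 1: it held 20, 8, 20 and 16 regions, with 2 gained and 10 lost, and 10 was the most lost at that time by a gene outside the basement membrane class. Its start site region, with a fold of 40.4 in the untreated list, was present throughout.

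The 4 transmembrane collagen genes gained 55 of 89 regions at day 1 (61.8%, against 49.9% of all linked regions), 21 of 60 at day 7 (35.0%, against 33.9%) and 2 of 34 at day 28 (5.88%, against 23%). By day 28 they had lost 32 of 64 untreated regions (50%, 37.2 to 62.8%), against 26.7%. Col17a1, a component of the hemidesmosomes that anchor epithelial cells, held 13, 23, 10 and 8 regions, with 15, 2 and 0 gained. Col23a1 held 25, 35, 27 and 14, with 22 gained at day 1 and 13 lost at day 28. Col13a1 held 19, 16, 17 and 7, with 9 lost at day 1 and 13 at day 28, and Col25a1 held 7, 15, 6 and 5. Each of these 4 genes ended with fewer regions than it began with. Col28a1, a beaded-filament collagen associated with nerve, held 15, 17, 16 and 14, with 11 gained and 9 lost at day 1.

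Gained collagen regions ranked low in their lists and lay mostly away from gene ends, as did gained regions in general. Of the 641 collagen gains of day 1, 610 lay over 1 kb from any gene end, beside 65596 of 70634 of all linked gains. At day 1, 610 of the 937 collagen regions over 1 kb from any annotated gene end were gained (65.1%, against 55.2% of all linked regions so placed). Within 1 kb of a gene end it was 31 of 76 (40.8%, against 22.1%). At day 7 the numbers were 332 of 713 (46.6%, against 37.8%) and 22 of 68 (32.4%, against 15.6%). At day 28 they were 136 of 507 (26.8%, against 25.7%) and 10 of 56 (17.9%, against 11%). At day 28 the background lay inside the collagen interval in both positions (23.0 to 30.9% away from gene ends and 8.91 to 30.4% near them). Median fold of the 641 gained regions of day 1 was 4.25, and that of the shared ones was 19.3, with median widths of 278 and 850.5 bp. Over all linked regions the same medians were 4.41 and 11.8, so that gained regions were about as weak at collagen genes as elsewhere.

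The distance from a gained region to the nearest untreated peak was measured too. At day 1 the median gap was 4014 bp for fibrillar, 1111 bp for basement membrane and 2302 bp for other collagen regions, against 2424.5 bp for all linked gains. At day 7 the order was different, with 2002, 943 and 3087.5 bp against 2028 bp. By day 28, 72.1% of the gained fibrillar regions and 63.9% of the gained basement membrane regions lay within 1 kb of an untreated peak, against 34.3% in the other class and 53.0% of all linked gained regions.

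Merging the 4 lists gave 1160 collagen regions, and the most frequent history was presence at day 1 alone. It applied to 410 of them (35.3%), against 21.9% of all linked merged regions, and the share was 42.0% in the fibrillar class, 33.6% in basement membrane genes and 32.1% in the rest. A further 149 were present at days 1 and 7 alone (12.8%, against 8.6%), 53 at days 1, 7 and 28 (4.57%, against 3.65%), and 290 in all 4 lists (25.0%, against 28%). Presence in the untreated list alone was seen for 75 (6.47%, against 10.7%). The history of regions that are missing during inflammation and return at day 28, present in the untreated and day 28 lists alone, was seen for 8 (0.690%, against 5.38%), of which none was fibrillar. Presence in the untreated list and at days 1 and 7, with absence at day 28, was seen for 42 (3.62%, against 2.31%), 18 of them at basement membrane genes. All these histories rest on the full lists, of which that of day 1 reaches furthest down. With the same weakest enrichment in every list, 312 of 651 day 1 collagen regions were gained, in place of 641 of 1013. The histories were not recounted under that setting.

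**Figure D4:**
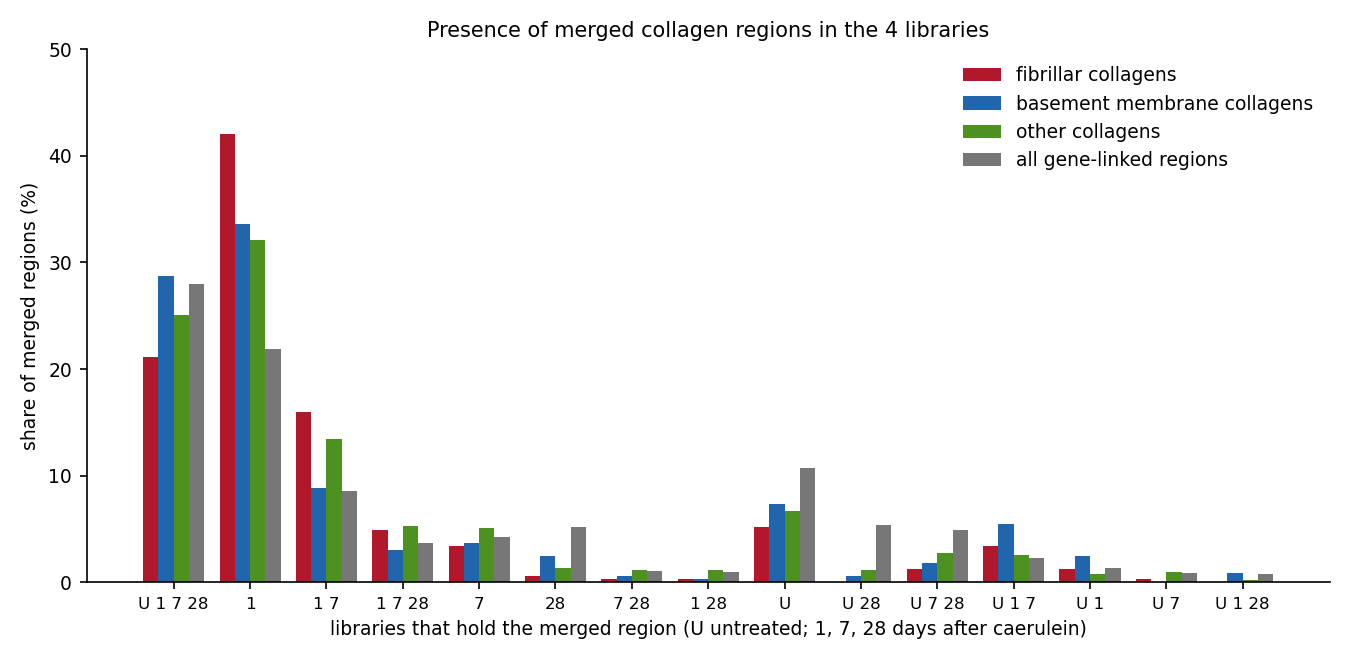
Share of merged regions, in percent, by the libraries that hold them, for 3 collagen classes and all gene-linked regions. The bars for presence at day 1 alone stand at 42.0, 33.6 and 32.1% for fibrillar, basement membrane and other collagens beside 21.9% for all linked regions, and the bars for the untreated and day 28 lists alone are near 0 for collagens beside 5.38%.

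Most of the day 1 gains had no later peak, at collagen genes as at linked genes in general. These counts also rest on the full lists. Of 641 gained regions 222 overlapped a day 7 peak (34.6%, against 36.9% of all linked day 1 gains), 66 a day 28 peak (10.3%, against 14.5%), and 410 neither (64.0%, 60.1 to 67.7%, against 59.8%). The background lay inside the interval of the first share (31.0 to 38.5%) and above that of the second (8.05 to 12.9%). Late losses were set beside their earlier history. Of the 197 untreated collagen regions missing at day 28, 114 had a peak at day 1 (57.9%, against 32.5% of all linked losses) and 79 had one at both days 1 and 7 (40.1%, against 20.8%). Among the 121 regions lost at day 1, 38 had a peak at day 28 (31.4%, against 51.4%).

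A subset of day 28 regions had no untreated peak and overlapped peaks of days 1 and 7 as well. There were 99 of these among 563 collagen regions (17.6%, 14.5 to 21.0%), against 9.57% of all linked day 28 regions. The share was 36 of 150 in the fibrillar class (24%, 17.4 to 31.6%), 20 of 171 in basement membrane genes (11.7%) and 43 of 242 in the others (17.8%). They were spread over 28 genes, with 8 at Col6a6, 7 each at Col1a2, Col5a1 and Col8a1, and 6 each at Col12a1 and Col15a1. Many adjoined older regions: 39 of the 99, and 19 of the 36 fibrillar ones, were joined to an untreated peak by a wider peak of day 1 or day 7, as were 34.4% of those at all linked genes. The strongest lay inside Col5a2, at chr1:45431980-45432291, with a day 28 fold of 7.66, above 57.2% of that list. Another lay inside Col3a1, at chr1:45315916-45316088 and 4.43 kb from the start, with a fold of 6.53.

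Start sites were open at most collagen genes in every library. Strand and start were matched by symbol for 35 of the 44 members. A region lay within 1 kb of the start in all 4 lists at 28 of the 35, against 63.8% of all genes so matched, namely at 8 of 8 fibrillar, 8 of 8 basement membrane and 12 of 19 other genes. It was absent from all lists at Col9a1, Col10a1, Col17a1 and Col28a1. At 3 genes it was present in some lists alone (8.57%, against 7.41% of all genes), a share close to the background. Col6a4, a type VI gene, had a region in the day 1 list, with a fold of 3.94. Col19a1 had one in the untreated list (fold 3.13), at day 1 (10.1) and at day 7 (5.91). Col20a1 had one at day 1 (6.62), day 7 (5.10) and day 28 (2.84). Several of these regions were weak, so their listing depends on where a list ends. The day 28 region of Col20a1 had the lowest fold of its list. The untreated region of Col19a1 lay above 3.77% of its list, and the Col6a4 region above 24.6% of the day 1 list.

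The 250 bases before these 3 start sites are shown because a region near them was listed in some libraries and not in others. They lie at chr9:106096692-106096941 (minus strand), chr1:24587438-24587687 (minus strand) and chr2:180986285-180986534 (plus strand), with the capitals used as above.
Col6a4: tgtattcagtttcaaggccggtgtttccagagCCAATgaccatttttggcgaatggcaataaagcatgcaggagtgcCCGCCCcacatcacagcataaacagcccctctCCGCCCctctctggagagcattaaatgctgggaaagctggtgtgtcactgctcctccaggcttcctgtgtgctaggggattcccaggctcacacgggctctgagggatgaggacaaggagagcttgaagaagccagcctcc
Col19a1: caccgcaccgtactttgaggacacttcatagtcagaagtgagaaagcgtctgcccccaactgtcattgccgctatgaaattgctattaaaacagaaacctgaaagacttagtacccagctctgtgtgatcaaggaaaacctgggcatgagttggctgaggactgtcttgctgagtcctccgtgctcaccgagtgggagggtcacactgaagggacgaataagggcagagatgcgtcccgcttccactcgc
Col20a1: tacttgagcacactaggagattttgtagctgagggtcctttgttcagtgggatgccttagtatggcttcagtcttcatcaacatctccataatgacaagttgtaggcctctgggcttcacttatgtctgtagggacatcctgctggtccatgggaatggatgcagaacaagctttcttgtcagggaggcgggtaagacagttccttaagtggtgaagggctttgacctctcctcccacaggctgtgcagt
The Col6a4 promoter holds a CCAAT box and 2 GC boxes on the opposite strand, and the windows of Col19a1 and Col20a1 hold no match to the 4 motifs. Over 38 collagen promoters of the 35 matched genes, a GC box was found in 57.9%, a CCAAT box in 34.2%, a TATA box in 13.2% and the AP-1 motif in 2.63%. The shares over all 21044 promoters of this length were 43.0, 35.6, 11.7 and 6.17%. A match describes letters in the window and does not show that a factor binds there.

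Changes within 1 kb of either end of a gene were counted for all 44 members. A gained region lay there at 18 genes at day 1 (40.9%, against 19.9% of all genes), at 17 at day 7 (38.6%, against 14.2%) and at 9 at day 28 (20.5%, against 10.8%). The 18 genes were Col1a1, Col1a2, Col3a1, Col5a1, Col5a2, Col4a1, Col15a1, Col6a1, Col6a2, Col6a4, Col8a1, Col8a2, Col12a1, Col13a1, Col14a1, Col19a1, Col23a1 and Col26a1. A lost region lay there at 6 genes at day 1 (13.6%, against 16.1%), at 9 at day 7 (20.5%, against 15.5%) and at 14 at day 28 (31.8%, against 14.7%). The 14 were Col1a1, Col2a1, Col11a1, Col11a2, Col4a1, Col4a2, Col7a1, Col6a1, Col9a2, Col9a3, Col12a1, Col13a1, Col20a1 and Col23a1. Counts per gene favour genes with many regions, so the share among all genes is a rough yardstick.

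Genes that make and mature collagen were followed as a list of 30. They gained 208 of 384 regions at day 1 (54.2%), 131 of 336 at day 7 (39.0%) and 67 of 273 at day 28 (24.5%), against 49.9, 33.9 and 23% of all linked regions. They lost 44, 50 and 58 of 266 (16.5, 18.8 and 21.8%), against 37.1, 31.8 and 26.7%. Adamts2, which encodes the protease that removes the amino-terminal propeptide of fibrillar procollagens, held 37, 60, 59 and 45 regions with 35, 27 and 15 gained. Plod2, a lysyl hydroxylase gene, held 17, 35, 24 and 22 with 24, 11 and 7 gained and none lost. The lysyl oxidase gene Lox, whose product cross-links fibrils, held 4, 13, 10 and 7. The procollagen protease gene Bmp1 and the prolyl hydroxylase gene P4ha2 gained 13 regions each at day 1.

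Of 10 collagen receptor genes, the list gained 109 of 187 regions at day 1 (58.3%), 64 of 154 at day 7 (41.6%) and 37 of 132 at day 28 (28.0%). Over all linked regions the gained shares were 49.9, 33.9 and 23%. The list lost 30, 24 and 27 of 116 regions (25.9, 20.7 and 23.3%), against 37.1, 31.8 and 26.7%. Ddr2, a receptor tyrosine kinase for fibrillar collagen found on mesenchymal cells, held 16, 45, 37 and 23 regions with 32, 22 and 7 gained. Its epithelial relative Ddr1 held 21, 18, 19 and 20, with 5 gained and 7 lost at day 1. The integrin gene Itga11, known from fibroblasts, held 17, 38, 25 and 17 with 28 gained at day 1. The widely used integrin gene Itga2 held 16, 22, 18 and 24. Gp6, the platelet receptor, had no region in any list.

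Markers of other cell types gave the following values beside the collagen classes. Over all linked regions the shares at days 1, 7 and 28 were 49.9, 33.9 and 23% gained and 37.1, 31.8 and 26.7% lost. The 16 fibroblast and stellate genes, chosen without collagens, gained 179 of 288 regions at day 1 (62.2%), 108 of 238 at day 7 (45.4%) and 54 of 187 at day 28 (28.9%), and lost 18, 18 and 34 of 166 (10.8, 10.8 and 20.5%). The 10 endothelial genes gained 61 of 126 at day 1 (48.4%), 58 of 139 at day 7 (41.7%) and 23 of 91 at day 28 (25.3%). They lost 71, 60 and 76 of 141 (50.4, 42.6 and 53.9%). Single endothelial genes differed: Cdh5 held 11, 9, 10 and 1 regions, Pecam1 held 21, 21, 23 and 16, and Kdr held 5, 15, 12 and 8. The 6 pericyte and smooth muscle genes gained 27 of 69 at day 1 (39.1%), 20 of 70 at day 7 (28.6%) and 11 of 62 at day 28 (17.7%). They lost 18, 17 and 16 of 71 (25.4, 23.9 and 22.5%).

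The remaining lists had other courses. Schwann cell genes gained 8 of 18, 7 of 21 and 4 of 14 regions at days 1, 7 and 28 (44.4, 33.3 and 28.6%). They lost 16, 12 and 15 of 25 (64, 48 and 60%). The 8 leukocyte genes held 20, 31, 21 and 17 regions, with Adgre1 at 0 in every list, and gained 20 of 31 at day 1 (64.5%), 10 of 21 at day 7 (47.6%) and 4 of 17 at day 28 (23.5%). Their losses were 9, 9 and 8 of 20 (45, 45 and 40%). Acinar genes gained 3 of 46 regions at day 1 (6.52%) and lost 144, 106 and 22 of 173 (83.2, 61.3 and 12.7%), with Cel, Cpb1 and Gp2 at 0 at day 1. Ductal genes gained 23 of 63, 19 of 71 and 20 of 70 regions (36.5, 26.8 and 28.6%). They lost 36, 27 and 20 of 72 (50, 37.5 and 27.8%). The fibrillar shares at days 1, 7 and 28 (69.4, 51.2 and 28.7% gained) stand beside 62.2, 45.4 and 28.9% in the fibroblast and stellate list and beside these leukocyte values, which rest on few regions. The lost shares were 15, 16.9 and 30.0% for fibrillar collagens and 10.8, 10.8 and 20.5% for the fibroblast and stellate list. For the leukocyte list they were higher, at 45, 45 and 40%. The share of each cell type in the libraries was not measured, and its part in the collagen values was not tested.

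**Figure D5:**
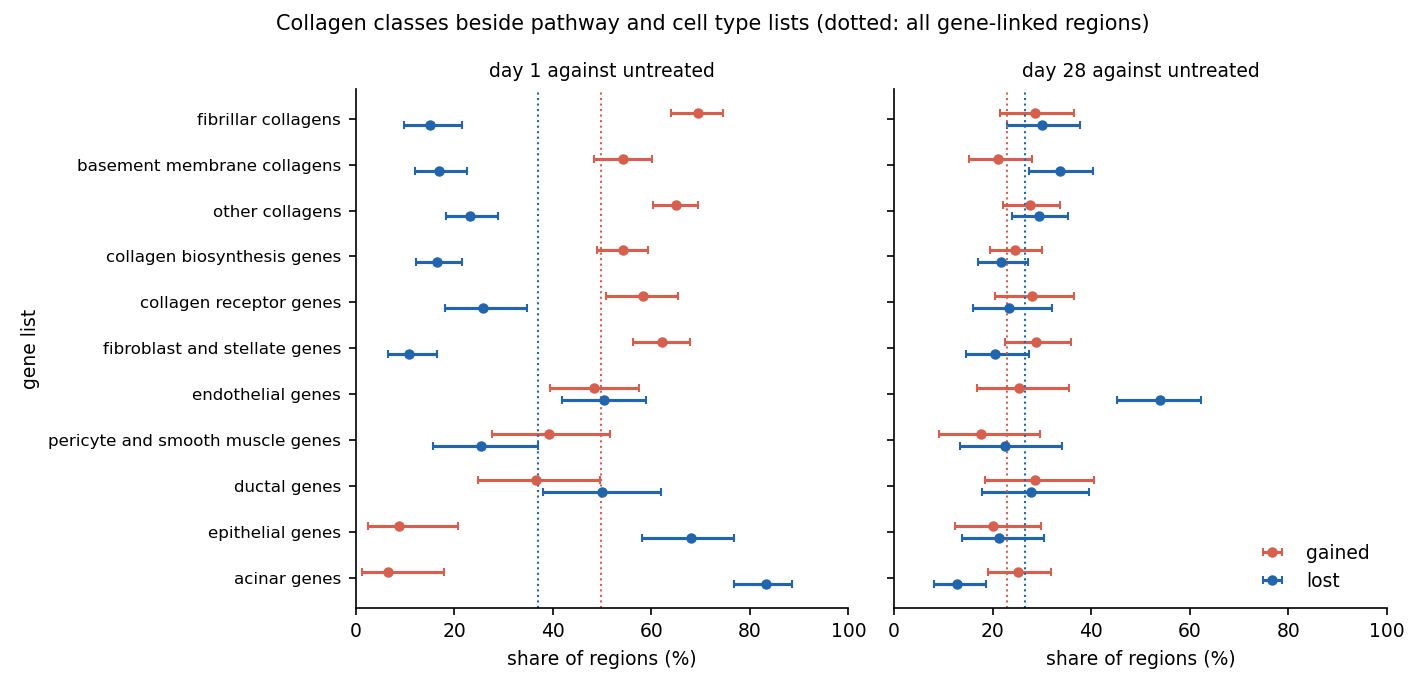
Gained (red) and lost (blue) shares of regions, in percent with exact 95% intervals, for 3 collagen classes, 2 pathway lists and 6 cell type lists at day 1 (left) and day 28 (right); dotted lines mark all gene-linked regions. At day 1 the highest gained shares drawn are those of fibrillar collagens (69.4%, with 15% lost), other collagens (65.0%, with 23.3% lost) and fibroblast and stellate genes (62.2%, with 10.8% lost). The acinar genes are at the opposite end with 6.52% gained and 83.2% lost. Leukocyte genes (64.5% gained and 45% lost at day 1) and Schwann cell genes are not drawn.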

How the data were processed

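ATAC-seq peak lists of 4 samples were used, 1 per group, with groups taken from the sample titles; the 3 DCLK1 samples were not analysed here. Tools named in the submitters' processing notes are Bowtie2 2.2.6, MACS2 2.1.0.20150731, SAMtools, deepTools and cutadapt, and the build is GRCm38 (mm10). What each tool did, with which options and filters, and whether reads were shifted to the transposase cut site, is not given in the sources used here. Each list is in narrowPeak layout. The authors' fold enrichment is a ratio of pileup to background at the summit. The deposited −log10 p and −log10 q columns grade the same enrichment, and the authors' score column is the −log10 q times 10 in every row used. The deposited summit offset gave each region's position. No column of per-sample values was left unused.

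Distinct intervals on chromosomes 1 to 19 and X were kept, which were 140286, 164684, 145337 and 130149 regions. Summits were linked to the nearest protein-coding span of the RefSeq table (GRCm38.p6) within 50 kb. This and overlaps of at least 1 bp were computed with Python 3.11.15, numpy 2.4.6, pandas 2.3.3 and scipy 1.17.1, tested on simulated intervals, and bedtools 2.31.1 gave the same numbers of gained regions. Start sites and strand came from the RefSeq promoter table. Intervals are exact (Clopper-Pearson) at 95%. Shares stand beside the same share over all gene-linked regions in place of a test.

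Members, classes and gene lists were chosen with earlier results of these data known. Named were, per class and comparison, the leading genes by gained regions (up to 6) and by lost regions (up to 4), genes changed at a gene end, members with no region, up to 4 genes of each pathway list per direction, and the 5 strongest gained and lost regions per comparison. Marker genes named singly, genes of the text outside these ranks and the promoters of Col1a2 and Col3a1 were chosen after their values were seen. The alternatives were a −log10 q of at least 5, overlap of at least 50% of both regions, links within 10 kb, a common enrichment minimum, and summits inside another gene left out. Peak sequences need a genome and were not used here.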

Additional observations from a re-analysis of the deposited data

How the results depend on the processing

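Leaving out summits inside another gene changed no count, since no collagen summit lay in one, and says nothing about stability. Under the other alternatives 39 of 57 recomputed shares stayed inside the 95% interval of the reported share and 18 moved outside it. With overlap of at least 50% of both regions, the gained shares at days 1, 7 and 28 were 91.4, 71.1 and 45.3% for fibrillar, 80.6, 53.1 and 40.4% for basement membrane and 86.8, 67.5 and 40.1% for other collagens, and the lost shares were 78.3, 56.4 and 48.1%. The background was then 71.3, 55.3 and 38.8% gained and 67.7, 55.0 and 43.5% lost. That setting also counts a region as gained or lost where the overlapping peak is much wider or narrower. With the common enrichment minimum, which left 110780 day 1 regions, the day 1 gained shares were 55.2% for fibrillar, 40.0% for basement membrane and 48.7% for other collagens against 39.1%, and the day 1 loss was 23.0% against 44.7%. With a −log10 q of at least 5, the day 1 loss was 15.2% and the day 28 gain of other collagens 21.5% against 18.5%. The sides of the background that changed were those of basement membrane genes at day 7, given with the report's values, basement membrane genes at day 28 (above it with the 50% overlap, and at 19.7% against 18.5% with the stricter q), and losses at days 1 and 7 with the 50% overlap; cases where only the interval's relation to the background changed stand in the report. Leaving out the gene with the most gained regions of each class, an alternative chosen after seeing the data, kept all 9 gained shares inside the reported intervals. No paired analysis was possible because each group has 1 library. With 1 library per group, library enrichment, depth and cell composition cannot be told apart from the time after caerulein.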
